A study of Mus musculus with 44 samples.

Results

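The cytosolic ribosomal protein genes encode the proteins of the ribosome of the cytoplasm, and 81 of the 23234 genes in the deposited table belong to them. They were chosen by symbol alone, as Rpl or Rps followed by a number and at most 1 letter, plus Rplp0, Rplp1, Rplp2 and Rpsa. The rule used no measured value. Of the 81 genes, 49 encode proteins of the large subunit and 32 those of the small subunit, and 80 passed the filter on low values (at least 1 FPKM in at least 3 libraries). Rpl10l was listed at 0 in all 44 libraries and was not tested.

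The libraries came from iLS cells, multipotent blood progenitors of C57BL/6J mouse fetal liver that carry Id3-ERT2, a fusion of the inhibitor Id3 to a receptor domain activated by 4-hydroxytamoxifen (4-OHT). At 0 h the cells stood on TSt-4 feeder cells in medium with IL-7 at 20 ng/mL, SCF and Flt-3L at 10 ng/mL each and 4-OHT at 40 nM. All later libraries were taken after a change to IL-7 at 5 ng/mL without 4-OHT, again on TSt-4 cells, which starts B cell differentiation. No SCF or Flt-3L is listed for these later cultures. IL-7, SCF, Flt-3L and 4-OHT thus all differ between 0 h and every later group. Poly(A) RNA was sequenced at 16 time points, with 3 libraries each at 0, 0.5, 1, 2, 4, 6, 8, 10, 12, 24, 48, 72, 96 and 144 h and a lone library for each of 120 and 168 h. Every group thus carries the Id3-ERT2 fusion and the feeder layer, and no later culture kept in 4-OHT was analysed here. Whether replicates were separate cultures and whether feeder cells were removed before RNA isolation is not stated, so the p-values cover no more than the spread among these libraries, which may be technical.

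The ribosome translates mRNA through a small subunit that reads the codons and a large subunit that joins the amino acids. Each ribosomal protein is needed in about equal amounts, and many of these mRNAs start with a run of pyrimidines (a 5′ terminal oligopyrimidine tract, TOP) through which nutrient and growth factor signalling controls their translation. In blood, loss of 1 copy of some of these genes causes Diamond-Blackfan anaemia.

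Start sites were compared first, because the tract lies at the start of the transcript. RefSeq promoters on GRCm38.p6, a later build than the mm9 of the deposited values, were matched by symbol to 60 of the 81 genes. The 30 bases around the annotated start, 15 on each side, are shown 5′ to 3′ on the coding strand for some of the members named below. The pyrimidine tract is in capitals where there was one.
Rpl13a, chr7:45128731-45128760, minus strand: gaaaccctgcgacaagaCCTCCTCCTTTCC
Rps9, chr7:3704026-3704055, plus strand: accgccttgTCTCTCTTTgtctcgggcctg
Rps6, chr4:86857353-86857382, minus strand: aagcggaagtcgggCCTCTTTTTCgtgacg
Rps3, chr7:99483695-99483724, minus strand: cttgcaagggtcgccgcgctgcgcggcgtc
Rps26, chr10:128626492-128626521, minus strand: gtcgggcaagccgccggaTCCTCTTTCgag
Rps27l, chr9:66946071-66946100, plus strand: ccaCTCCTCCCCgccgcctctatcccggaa
Rpl39l, chr16:10170213-10170242, plus strand: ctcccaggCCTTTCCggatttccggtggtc
A tract was taken as at least 6 C or T bases in a row on the coding strand that touch the 20 bases around the start. It was found in 37 of the 60 matched members (61.7%) and in 32.7% of 27025 genes. In the window from 250 bases before to 50 after the start, on both strands, CCGGAAG stood in 25 of 60 members (41.7%) against 9.9% of genes, AAGATGGC in 5 members (8.3%) against 3.2%, and TATAAA in 6 members (10.0%) against 15.7%. The reverse complement of CCGGAAG holds C and T bases in a row and can overlap a tract. A match describes the letters only, and the annotated start need not be the one used in these cells. In Rps27l and Rpl39l the tract shown lies wholly before the annotated start. Rps4x, Rpl41, Rpl10 and Rplp0, named below but not shown, had no tract.

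Levels per length (FPKM) spanned a wide range, with 72 of the 81 members at a mean of at least 300 FPKM over the 44 libraries and 55 over 1000. Rpl41, which encodes the smallest ribosomal protein, had the highest mean, at 4731 FPKM, followed by Rplp1, a protein of the stalk that recruits elongation factors, at 4377, and Rpl38 at 3648. At the low end, 9 members had means under 200 FPKM. Among them Rpl22, needed in the development of alpha-beta T cells, had a mean of 178, Rpl34 of 29.5 and Rpl3l, a paralog of Rpl3 known from muscle, of 0.241, with Rpl3l listed at 0 in 34 libraries. The mouse genome holds many near-identical processed copies of these genes, and how reads that match several copies were assigned is not given in the sources used here, so the level of any single member is uncertain to that extent.

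Most members moved together from library to library. The correlation of a member with the mean of the other members (log2 scale, 44 libraries) had a median of 0.837 and ranged from -0.606 to 0.975, with 48 members over 0.8 and 7 below 0. These values describe libraries that share 1 scaling per library and have no p. The lowest was that of Rpl39l, and Rpl30, Rps26 and Rpl41 were also below 0.

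1 library stood apart. In replicate 3 at 24 h the members summed to 70080 FPKM, against 110100 and 117100 in the other 24 h libraries, and 73 of 80 tested members were lowest of the 3 there. The 18 general blood-cell markers summed to 400.2 FPKM in that library, against 909.8 and 754.4. Most counts and medians at 24 h, and the changes of most named members, are therefore given with and without it. Over all libraries the summed FPKM of all genes ranged from 516000 to 701700 and the share of small RNA genes from 8.23 to 23.3%. The sequencing depth is unknown, since the table holds no counts. The library codes in the sample descriptions fall into runs of consecutive codes, and what a run stands for is not stated. All 0 h comparisons share the same 3 libraries at 0 h.

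The members together made up 22.5 to 23.6% of the summed FPKM at 0 h (mean 22.9% ± 0.596, SD, n = 3). At 0.5 h the share was 17.8 to 21.0% (19.1% ± 1.65), below all 0 h libraries, and at 6 h it was 16.8 to 18.7% (17.9% ± 0.957). At 24 h it was 16.3% ± 2.34, the lowest mean, but replicates 1 and 2 held 17.6 and 17.7% and replicate 3 held 13.6%, and without replicate 3 the mean of 17.6% is above those of 8 h (17.2%) and 48 h (17.4%). The share was 18.6% ± 0.507 at 72 h and 21.8% ± 1.68 at 144 h, a range of 20.1 to 23.5% that overlaps that of 0 h, and 20.8 and 23.4% in the single libraries at 120 and 168 h. Leaving small RNA genes out of the sum, it was 27.1% ± 0.736 at 0 h, 19.5% ± 2.90 at 24 h and 25.4% ± 2.24 at 144 h. In such bulk libraries, fewer cells of a type and less RNA per cell cannot be told apart.

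Markers of the feeder cells and of blood cells changed over the same hours. The 27 stromal feeder markers, such as collagen genes, summed to 792.2 to 2694 FPKM at 0 h, 6897 to 8660 at 0.5 h, 8456 to 10070 at 24 h and 2132 to 3773 at 144 h, with Lum and Dcn listed at 0 in each of these. The 18 blood-cell markers, such as Ptprc and Coro1a, summed to 2406 to 3189 FPKM at 0 h, 1321 to 1493 at 0.5 h, 400.2 to 909.8 at 24 h and 1934 to 2379 at 144 h, with none at 0. The 12 progenitor and B-lineage markers, such as Kit, Flt3 and Cd79a, summed to 510.2 to 637.5 FPKM at 0 h, 136.6 to 237.7 at 24 h and 1273 to 1555 at 144 h. This list is mixed, and its sum does not stand for each gene. Against 0 h, limma (adjusted p under 0.05) called 11 of the 12 lower and 1 higher at 24 h. At 144 h, where the sum was above that of 0 h, 7 were called higher but 2 lower. The groups 0 h and 24 h did not overlap in any of the marker sums. Their part in the changes of the ribosomal protein genes was not tested.

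**Figure D1:**
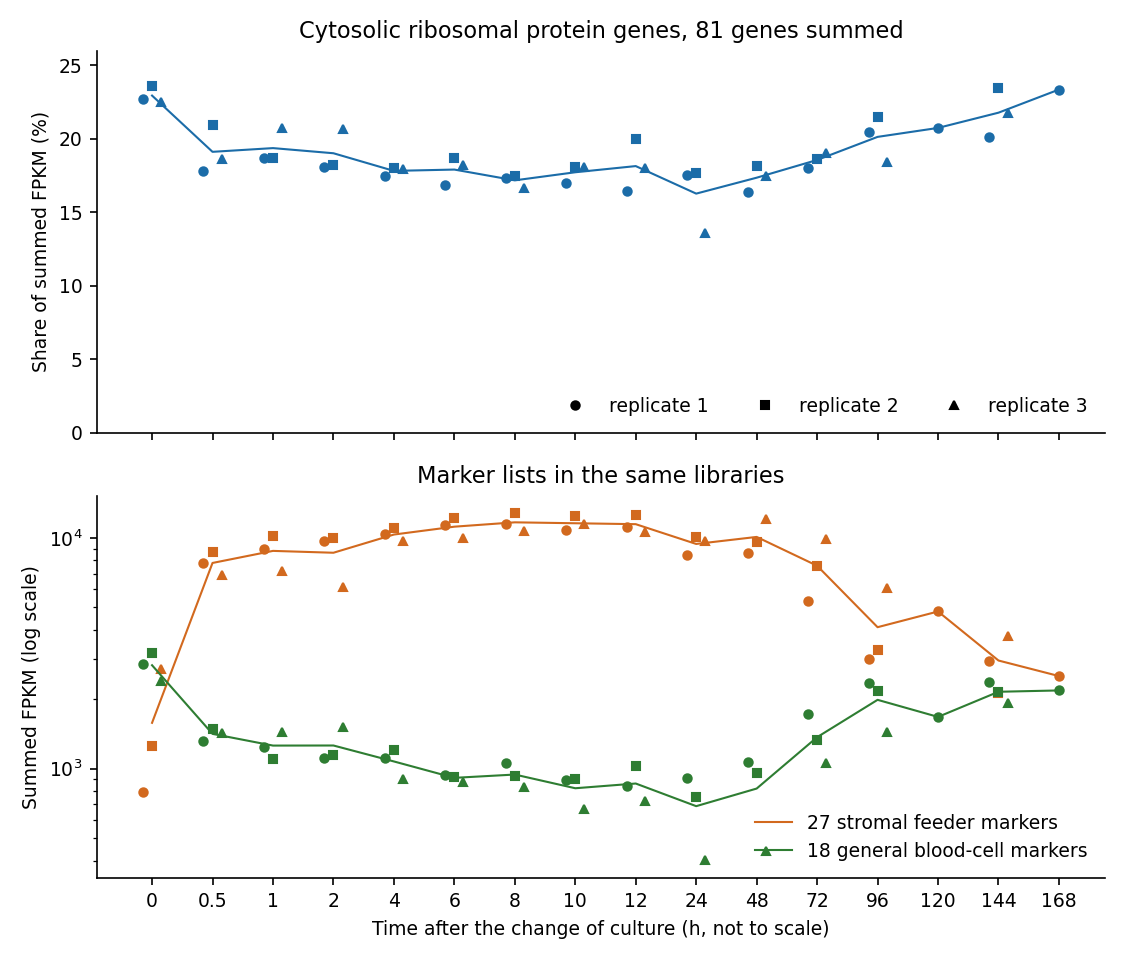
Upper panel, share of the summed FPKM held by the 81 cytosolic ribosomal protein genes (%), and lower panel, summed FPKM of the 27 stromal and 18 blood-cell markers (log scale), by hours since the change of culture (not to scale); symbols are replicates and lines join the means. The mean share was 22.9% at 0 h, 16.3% at 24 h and 21.8% at 144 h. Stromal sums had a higher mean and blood-cell sums a lower one at 24 h than at both 0 and 144 h.

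Over all later time points, 49 of the 80 tested members (61.2%) differed from 0 h by the F test of limma at an adjusted p under 0.05, against a background of 56% of the 13907 genes tested. The share of members is thus near that of all genes. Directions are given on the deposited scale, and the sign of most, not their place below the median of all genes, is the other one when libraries are shifted to the blood-cell markers. Changes are log2 differences of FPKM + 1 throughout. At 6 h, 44 members were called lower than at 0 h and 2 higher, against a background of 19.2% of genes called lower and 19.0% higher, with a median log2 change of -0.50 over the members and -0.06 over all genes. At 24 h, 50 were called lower and 4 higher, against 22.5% and 20.8% of genes, with medians of -0.68 and -0.06. The libraries of 24 h lay below all of those at 0 h in 55 members, against a background of 24.6% of genes. Between 24 and 6 h, no member was called by limma (background 2.08%), with 12 of 80 members and 15.4% of all genes at an unadjusted p under 0.05.

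The number of members called lower was smaller in the first hours. On the deposited scale it was 13 at 0.5 h against a background of 7.29% of genes, 19 at 1 h against 15.3%, and 23 at 2 h against 18.5%. At 4, 8, 10, 12 and 48 h it was 48, 47, 46, 43 and 41, against 17, 19.2, 20.5, 20.3 and 16.4% of genes. The early counts depended on single libraries. At 0.5 h the 14 calls in either direction (background 21.6%) became 4 without 0 h replicate 1, 5 without 0 h replicate 2, 2 without 0.5 h replicate 1 and 4 without 0.5 h replicate 2. At 1 h the 20 calls (32.1%) became 11 and 7 without 0 h replicates 1 and 2, and 6 and 5 without 1 h replicates 1 and 2, and at 2 h the 24 calls (35%) became 11 and 4 without 0 h replicates 1 and 2, and 5 and 4 without 2 h replicates 1 and 2. Medians at these times were -0.28, -0.30 and -0.33, beside -0.06, -0.08 and -0.11 over all genes. With quantile normalization the members' medians were -0.11, -0.16 and -0.16, beside -0.12, -0.11 and -0.12 over all genes. At 6 h, leaving out 1 library gave 33 to 44 calls, with 1 higher in place of 2 except without 0 h replicate 3, and at 24 h 49 to 59. Without replicate 3 at 24 h the count was 49 (45 lower, 4 higher) with a median of -0.41. Of all 13893 genes in that fit, 2163 were lower and 2826 higher, with a median of 0. This library thus moved the members' median but not their count by more than 1.5 times. The 4 higher calls at 24 h became 2 without 0 h replicate 1 or 2 or without 24 h replicate 1 or 2, and 3 without 0 h replicate 3.

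Libraries of the same code run could be compared at some times. At 6 h the median member change against 0 h was -0.47, -0.49 and -0.56 in the 3 runs that hold both times. At 24 h it was -0.46 and -0.47 in the 2 runs that hold both, with 64 and 66 of 80 members lower, beside stromal medians of 3.24 and 3.05 and blood-cell medians of -1.68 and -2.21. From 6 to 24 h it was 0.098 and 0.095 in these runs, with 61 and 53 members higher, whereas over all libraries it was -0.16 and without 24 h replicate 3 0.093. At 1 h it was -0.09, -0.34 and -0.45. No run holds both a 0 h library and a library of 48 h or later.

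The sign of a change depends on the level that the libraries are set to. A shift of each library to the mean of the general blood-cell markers moves all genes of that library alike. With it 79 members were called higher and none lower at 24 h. The members' median was then 1.50, beside a median over all genes of 2.13 in place of -0.06. The share of all genes called after this shift is not given, so the count of 79 is no result about the members. The members' median less that of all genes was -0.626 on both scales, -0.614 when rescaled without small RNA genes and -0.339 with quantile normalization. With the mean of the stromal markers as a covariate, no member was called in any of the 6 main comparisons (1, 6, 24, 72 and 144 h against 0 h, and 144 h against 24 h). The share of all genes called in that fit is not given. At 1, 6, 24 and 72 h the stromal sums lay above all those of 0 h. The fit therefore cannot separate this covariate from time, and the absence of calls is no result about the members. Quantile normalization left 42 lower and 8 higher at 24 h, and rescaling without small RNA genes 51 and 5.

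**Figure D2:**
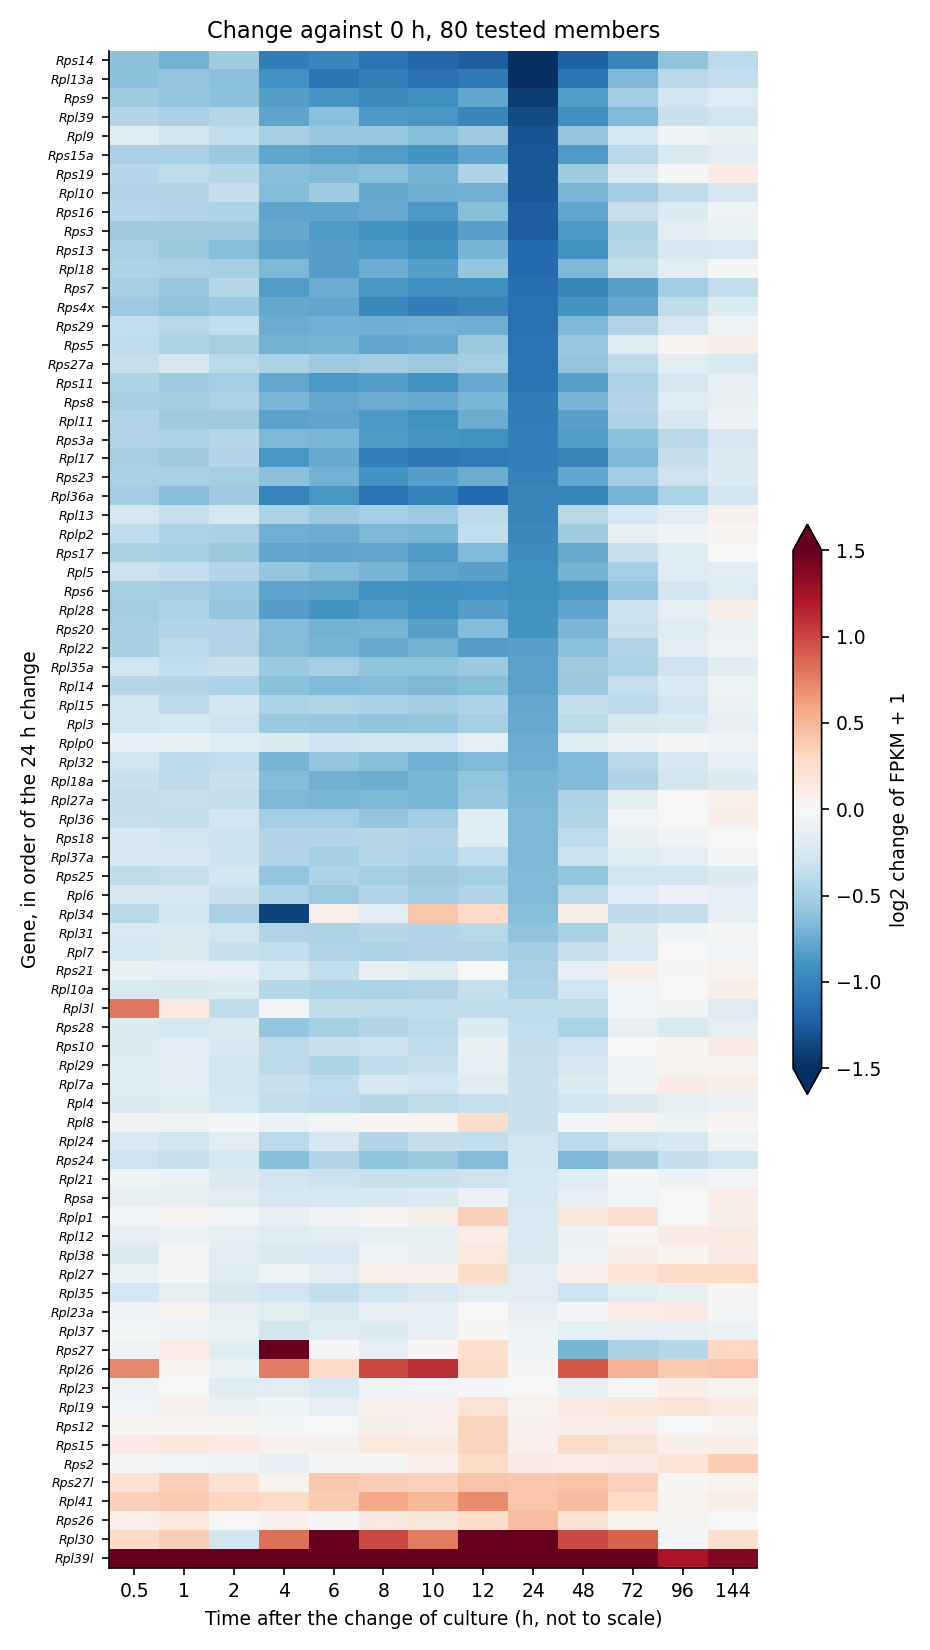
Fitted log2 change of FPKM + 1 against 0 h for the 80 tested members (rows, in order of the change at 24 h) at the 13 later replicated time points (columns, h, not to scale); blue is lower and red higher than 0 h. At 24 h 50 members were called lower (background 22.5% of genes) and 4 higher (20.8%) on the deposited scale. A shift to the blood-cell markers, which moves all genes of a library alike, gave 79 members called higher. The 120 and 168 h libraries were not fitted.

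Among small subunit members, 21 of 32 were called lower and 1 higher at 24 h on the deposited scale, with a median of -0.97, against 29 lower and 3 higher of 48 large subunit members, with a median of -0.65. Of all genes tested, 22.5% were called lower and 20.8% higher. Without 24 h replicate 3 the counts were 21 lower and 2 higher, with a median of -0.60, and 24 lower and 2 higher, with a median of -0.35. Both medians over all libraries are shifted by 2.18 to positive values with blood-cell scaling. The difference between subunits was not tested. The summed FPKM of the small subunit was 0.801 to 0.808 of that of the large subunit at 0 h, 0.729 to 0.757 at 6 h, 0.732 to 0.757 at 24 h and 0.772 to 0.784 at 144 h. This ratio is not touched by a factor common to a library, and the libraries of 6, 24 and 144 h all lay below those of 0 h.

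Rps14, a protein of the platform of the small subunit, stood at 1714, 1581 and 1858 FPKM at 0 h and at 711, 832 and 127 FPKM at 24 h. All 24 h libraries were below those of 0 h, and replicate 3 was far below the other two. The log2 change was -2.02 ± 0.38 (SE, adjusted p = 5.55e-05), the largest fall among the members at 24 h, -1.16 without 24 h replicate 3 and 0.17 with blood-cell scaling. Rps9, which helps keep decoding accurate, stood at 2835, 3518 and 2645 FPKM at 0 h and at 1587, 1621 and 526 FPKM at 24 h. Its groups did not overlap either, and the change was -1.43 ± 0.24 (adjusted p = 1.07e-05), -0.89 without 24 h replicate 3 and 0.76 with blood-cell scaling. Rps19, the gene most often mutated in Diamond-Blackfan anaemia, stood at 1729, 2148 and 1787 FPKM at 0 h and at 1219, 1361 and 280.1 FPKM at 24 h. Its change of -1.28 ± 0.30 (adjusted p = 8.29e-04) rested more on replicate 3, being -0.54 without it, and was 0.91 with blood-cell scaling.

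Rps3, which lines the mRNA entry channel, stood at 792, 991 and 829 FPKM at 0 h and at 507, 452 and 218 FPKM at 24 h. The groups were apart, with a change of -1.23 ± 0.20 (adjusted p = 5.84e-06) that was -0.85 without 24 h replicate 3 and 0.95 with blood-cell scaling. Rps6, the substrate of S6 kinase, stood at 1441, 1593 and 1397 FPKM at 0 h and at 848, 743 and 757 FPKM at 24 h. Here replicate 3 was not the lowest. The change was -0.92 ± 0.13 (adjusted p = 1.26e-06), -0.89 without 24 h replicate 3, -0.48 with quantile normalization and 1.27 with blood-cell scaling. Rpsa, which also serves as a laminin receptor, stood at 1182, 1291 and 1207 FPKM at 0 h and at 1068, 1167 and 872 FPKM at 24 h. Although these groups did not overlap, its change of -0.25 ± 0.11 missed the threshold (adjusted p = 0.0701), and it was -0.13 without 24 h replicate 3, 0.12 with quantile normalization and 1.93 with blood-cell scaling. Without 24 h replicate 2 it was called, at -0.35.

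Of the large subunit, Rpl13a, which is also a part of a complex that silences translation after interferon-gamma, had the largest fall at 6 h. It stood at 2137, 2248 and 1898 FPKM at 0 h, 1359, 1271 and 1573 FPKM at 1 h, 963, 979.6 and 996 FPKM at 6 h, and 1089, 976 and 379 FPKM at 24 h. Every later library here was below the lowest of 0 h. The log2 change was -0.58 ± 0.21 at 1 h (adjusted p = 0.0345), -1.09 ± 0.21 at 6 h (adjusted p = 1.16e-04) and -1.50 ± 0.21 at 24 h (adjusted p = 1.03e-06), and with blood-cell scaling it was 0.59, 0.52 and 0.69. Without 24 h replicate 3 the 24 h change was -1.02. The 1 h call was lost with quantile normalization, at -0.39, and without any of 0 h replicates 1 and 2 and 1 h replicates 1 and 2, at -0.57, -0.53, -0.56 and -0.51. At 1 h the largest falls among called members on the deposited scale were those of Rpl36a, from 1586, 1276 and 1264 FPKM to 838, 833 and 972 (-0.64 ± 0.17, adjusted p = 5.38e-03), and of Rps4x, an X-linked small subunit gene, from 1921, 1827 and 1925 FPKM to 1061, 1221 and 1500 (-0.60 ± 0.16, adjusted p = 5.37e-03). Both had groups apart and read 0.53 and 0.57 with blood-cell scaling.

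The remaining large subunit members that were fixed for naming had these values. Rpl10, which joins late and licenses the subunit, had a mean of 1778 FPKM ± 46.8 at 0 h and 818.5 ± 393 at 24 h (SD, n = 3 each), a log2 change of -1.27 ± 0.24 that was -0.77 without 24 h replicate 3. Rpl11 went from 2358, 3039 and 2290 FPKM to 1468, 1498 and 871 FPKM (-1.03 ± 0.17, and -0.78 without 24 h replicate 3) and Rpl5 from 798.5 ± 66.9 to 428 ± 102 (-0.92 ± 0.15, and -0.72 without it). These 2 proteins bind the 5S ribosomal RNA and, when free, the p53 regulator Mdm2. Rpl22 went from 243 ± 24.0 to 141 ± 36.8 FPKM (-0.82 ± 0.16, and -0.58 without 24 h replicate 3), and Rpl3, at the catalytic centre, from 1473 ± 111 to 915 ± 331 (-0.76 ± 0.17, and -0.41 without 24 h replicate 3). All 5 passed the threshold, their libraries of 24 h lay below those of 0 h, and with blood-cell scaling all 5 changes were positive, from 0.91 to 1.42. With quantile normalization Rpl11 read -0.65 and Rpl3 -0.35.

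The stalk proteins differed among themselves. Rplp2 stood at 3084, 3647 and 2652 FPKM at 0 h and at 1965, 2234 and 919 FPKM at 24 h, and fell by 0.96 ± 0.22 on the log2 scale (adjusted p = 6.79e-04), a change of -0.57 without 24 h replicate 3 and 1.22 with blood-cell scaling. Rplp0, the base of the stalk and a common reference gene, stood at 2041, 2152 and 1981 FPKM at 0 h and at 1652, 1746 and 646 FPKM at 24 h (-0.74 ± 0.19, adjusted p = 2.18e-03), with -0.28 without 24 h replicate 3, -0.33 with quantile normalization and 1.44 with blood-cell scaling. Rplp1 stood at 4092, 4289 and 4208 FPKM at 0 h and at 4393, 5113 and 2038 FPKM at 24 h. Its 24 h libraries lay on both sides of those of 0 h, and it missed the threshold at -0.23 ± 0.20 (adjusted p = 0.385), with 0.18 without replicate 3, -0.38 without replicate 1 and -0.49 without replicate 2 of 24 h, and 1.96 with blood-cell scaling. Rpl38, needed for translation of Hox mRNAs in the embryo, missed it as well, at 3757, 4070 and 3328 FPKM at 0 h and 3895, 3955 and 2109 FPKM at 24 h (-0.22 ± 0.18, adjusted p = 0.352), with 0.08 without replicate 3, -0.36 without replicate 1 and -0.37 without replicate 2 of 24 h, and 1.97 with blood-cell scaling.

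**Figure D3:**
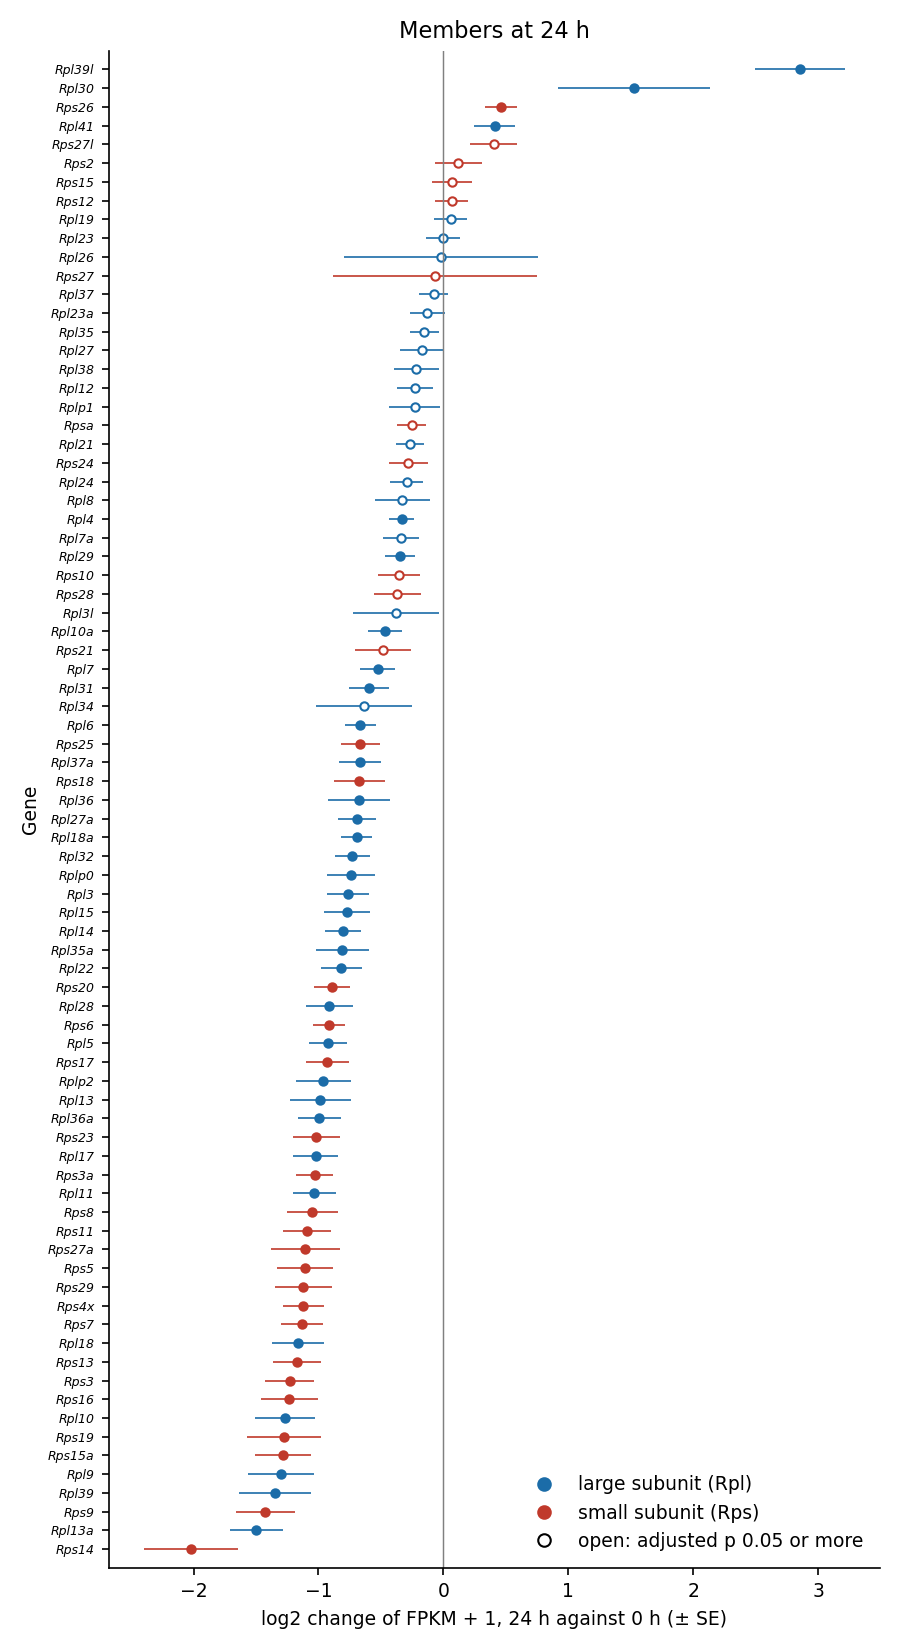
Fitted log2 change of FPKM + 1 at 24 h against 0 h for each tested member (points, bars ± SE, 3 libraries per time point); blue is large and red small subunit, and open points missed an adjusted p of 0.05. Values run from -2.02 (Rps14) to 2.85 (Rpl39l) on the deposited scale. Scaling to the blood-cell markers shifts all genes of a library alike, and 79 members are then called higher.

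A few members went the other way. Rpl39l, a paralog of the X-linked Rpl39 known from testis, stood at 13.8, 8.56 and 54.5 FPKM at 0 h, 97.0, 147 and 125 FPKM at 1 h, 152, 170.4 and 218 FPKM at 6 h, 158, 221 and 82.9 FPKM at 24 h, 69.0, 74.2 and 86.3 FPKM at 72 h, and 58.7, 43.1 and 51.9 FPKM at 144 h. The groups from 1 to 72 h lay above 0 h, and that of 144 h overlapped it through 0 h replicate 3, the 0 h library with the highest stromal sum. The log2 change was 2.62 ± 0.36 at 1 h (adjusted p = 1.50e-06), 3.17 ± 0.36 at 6 h (adjusted p = 2.87e-08), 2.85 ± 0.36 at 24 h (adjusted p = 1.58e-07) and 1.96 ± 0.36 at 72 h (adjusted p = 1.10e-04), and it was positive under each scaling tried. Without 24 h replicate 3 the 24 h change was 3.24. At 144 h it was 1.38 ± 0.36 (adjusted p = 0.0120), but 1.17 and 0.86, both short of the threshold, without 0 h replicates 1 and 2, and 2.12 without 0 h replicate 3.

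Rpl41 stood at 3395, 3955 and 3786 FPKM at 0 h, 4592, 5222 and 4840 FPKM at 6 h, and 4968, 6272 and 3835 FPKM at 24 h. Its highest value, 6801 FPKM, came at 12 h. The change was 0.40 ± 0.17 at 6 h (adjusted p = 0.0573), called at 0.80 with quantile normalization, and 0.41 ± 0.17 at 24 h (adjusted p = 0.0437), and the latter call was lost without any of the 0 h libraries (0.35, 0.46 and 0.43 without replicates 1, 2 and 3) or of 24 h replicates 1 and 2 (0.40 and 0.24), and with quantile normalization. Rps26, which lies at the mRNA exit channel and is mutated in some Diamond-Blackfan anaemia, stood at 2521, 3024 and 2687 FPKM at 0 h and at 3246, 3548 and 4675 FPKM at 24 h. All 24 h libraries were above those of 0 h, and replicate 3, lowest for most members, was the highest here. The change was 0.46 ± 0.13 (adjusted p = 4.07e-03), and 0.31 without 24 h replicate 3. Rps27l, a paralog of Rps27 known as a p53 target, stood at 454, 506 and 427 FPKM at 0 h and at 731, 809 and 383 FPKM at 24 h. It missed the threshold at 0.40 ± 0.19 (adjusted p = 0.0842), passed it at 0.74 without 24 h replicate 3, and was 0.20 without 24 h replicate 2. Rpl30 was listed low, at 34.4, 24.4 and 66.8 FPKM at 0 h and 95.3, 99.9 and 149 FPKM at 24 h. Its change of 1.53 ± 0.61 (adjusted p = 0.0423) lost its call without any of 5 of the 6 libraries compared (all but 0 h replicate 3), at 1.21 to 1.64.

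**Figure D4:**
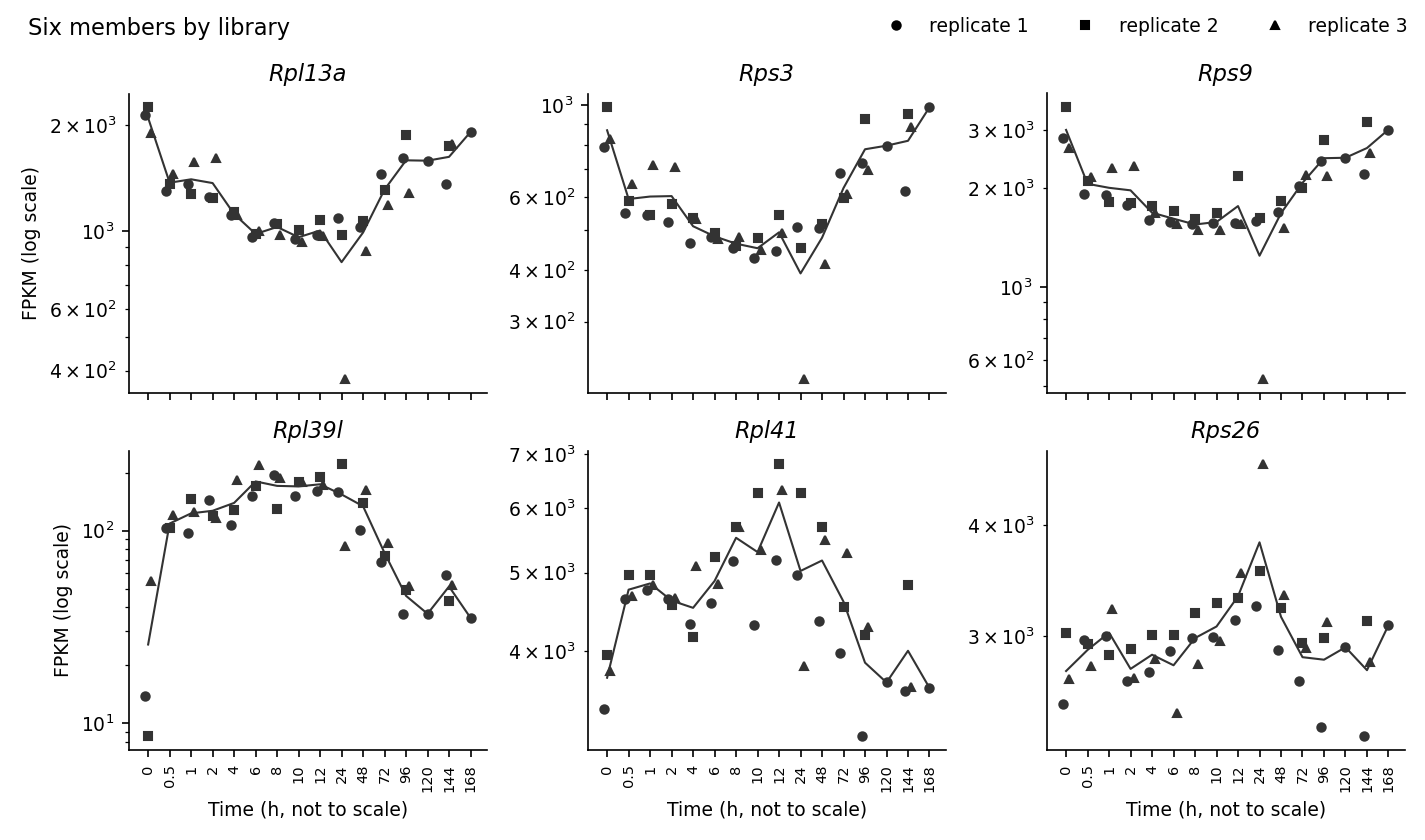
FPKM (log scale) of Rpl13a, Rps3, Rps9, Rpl39l, Rpl41 and Rps26 in each library by hours since the change of culture (not to scale); symbols are replicates and lines join the means. Rpl13a, Rps3 and Rps9 were lower and Rpl39l and Rps26 higher at 24 h than at 0 h on the deposited scale, and with blood-cell scaling the 3 falls read as rises; 24 h replicate 3 is the lowest point for the upper genes and the highest for Rps26.

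A fit that first set each library to the mean of the members asked which of them departed from the rest, and this is untouched by a factor common to a library. By its F test, 41 of 80 members (51.2%) departed from the family mean over the time course, against a background of 54.3% of all genes, a share near the background. It was so for 21 of 32 small subunit and 20 of 48 large subunit members. The 5 members with the largest F statistic were Rpl39l, Rpl41, Rpl13a, Rps3 and Rps27l. At 24 h, 20 members were higher (background 43.1%) and 31 lower (7.44%) relative to the family mean. Without 24 h replicate 3 these were 14 and 27, beside 4185 and 1051 of 13893 genes. Setting libraries to the family mean splits the members around 0 and lifts other genes by the members' own fall. These backgrounds, and that of the F test, therefore cannot gauge how far members departed. With all 24 h libraries, the relative change of Rpl41 was 1.00 ± 0.14 (adjusted p = 6.02e-07). Rps27l was at 0.99 ± 0.16 (adjusted p = 7.93e-06) and Rps26 at 1.06 ± 0.19 (adjusted p = 2.26e-05). On the other side, Rpl13a was at -0.91 ± 0.12 (adjusted p = 1.44e-07), Rps9 at -0.84 ± 0.13 (adjusted p = 3.30e-06) and Rps3 at -0.64 ± 0.10 (adjusted p = 4.26e-06). None of these relative changes is given without 24 h replicate 3. Without replicate 2 in the whole course, 6 members departed by the F test, and without replicate 1, 14. With the stromal mean, which itself changed with time, as a covariate, 3 departed.

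The changes were set beside the start-site tract, with no test. The genes shown above were a selection that left out some named members without a tract. At 24 h the median log2 change was -0.64 in the 37 tested members with a tract, 21 of them called lower, and -0.78 in the 22 without, 13 of them called lower, against a background of 22.5% of genes. Without 24 h replicate 3 the medians were -0.36 and -0.48, with 18 and 13 called lower. Of the 7 genes whose start is shown above, the 6 with a tract were 3 that fell at 24 h on the deposited scale (Rpl13a, Rps9 and Rps6, with positive values under blood-cell scaling), 2 that rose (Rps26 and Rpl39l) and Rps27l, which missed the threshold on that scale, and the gene without a tract, Rps3, fell (0.95 with blood-cell scaling).

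Other genes of translation were counted beside the members at 24 h. The background for all of these lists was 22.5% of genes called lower and 20.8% higher. Without 24 h replicate 3 it was 2163 lower and 2826 higher of 13893 genes. Of 5 ribosomal protein genes outside the symbol pattern, 4 were called lower and none higher, with a median of -0.56, and 1 lower with a median of -0.36 without 24 h replicate 3. Among them Fau, which encodes a small subunit protein fused to a ubiquitin-like one, went from a mean of 1377 to 820 FPKM (-0.82 ± 0.18, -0.51 without 24 h replicate 3 and -0.47 with quantile normalization), and Rpl22l1, a paralog of Rpl22, from 417 to 204 FPKM (-1.54 ± 0.41, and -0.53, short of the threshold, without 24 h replicate 3). Rpl36al was at -0.56 ± 0.18, and at -0.36, short of the threshold, without 24 h replicate 3. With blood-cell scaling these 3 read 1.36, 0.65 and 1.62. Of 19 other genes with TOP mRNAs, such as those of elongation factors, 5 were higher and 7 lower, with a median of -0.16 (4 and 5, with -0.055, without 24 h replicate 3). Among these the initiation factor subunit Eif3f was at -1.31 ± 0.22 (-0.83 without 24 h replicate 3, 0.87 with blood-cell scaling) and the histone chaperone gene Nap1l1 at 0.89 ± 0.16 (0.59 without 24 h replicate 3).

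Of 76 mitochondrial ribosomal protein genes, 9 were higher and 7 lower at 24 h with a median of -0.0026 (9 and 2, with 0.15, without 24 h replicate 3), and Mrpl42 was at 1.32 ± 0.22. Of 29 ribosome biogenesis genes, 4 were higher and 2 lower with a median of 0.21 (4 and 1, with 0.20, without that library), and Utp20, of the small subunit processome, was at 1.12 ± 0.17 and Brix1, which acts in large subunit assembly, at 0.84 ± 0.17. Of 24 translation initiation factor genes, 4 were higher and 4 lower, with a median of -0.12 (2 and 3, with 0.06, without it). Of 150 other genes with a mean of at least 300 FPKM, small RNA genes left out, 61 were higher and 23 lower with a median of 0.24 (75 and 13, with 0.37, without it), above the members' median of -0.68. The bound of 300 FPKM is a floor, so these genes are not matched to the members in level. Their largest change, 3.93, equals that of the stromal feeder markers, and feeder genes were not left out. Of the 9 Diamond-Blackfan anaemia genes among the members, 6 were lower and 1, Rps26, higher, with and without 24 h replicate 3. With all libraries 50 of the 80 tested members were lower, a share near that of these 9 genes. The changes of Mrpl42, Utp20 and Brix1 are given with all libraries only. Blood-cell scaling adds 2.18 to each of these medians over all libraries.

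Most members rose again after 24 h on the deposited scale. Against 24 h, 53 members were called higher and 2 lower at 144 h, against a background of 17.4% and 15.6% of genes. The median was 0.63, beside 0.08 over all genes. Without 24 h replicate 3 there were 36 and 3, with a median of 0.32, and the share of all genes in that fit is not given. With blood-cell scaling, which moves all genes by -1.71 here, 74 were called lower. The members' median less that of all genes was 0.55 on both scales and 0.326 with quantile normalization. The 2 lower members were Rpl39l, at -1.47 ± 0.36 (adjusted p = 2.03e-03), and Rps26, at -0.47 ± 0.13 (adjusted p = 5.49e-03). The call of Rps26 was lost without 24 h replicate 3 (-0.31) and without 144 h replicate 1 (-0.35). Rps14 stood at 1367, 1384 and 1187 FPKM at 144 h, above all 24 h libraries, with a change of 1.63 ± 0.38 (adjusted p = 1.18e-03) that was 0.77 without 24 h replicate 3. Rps19, at 1642, 2382 and 2203 FPKM, changed by 1.40 ± 0.30 (0.67 without that library) and Rps9, at 2198, 3174 and 2555 FPKM, by 1.24 ± 0.24 (0.70 without it). With blood-cell scaling these 3 read -0.08, -0.30 and -0.47. In the 1 code run that holds both times, run 3, the median member change from 24 to 144 h was 1.18, and that run holds 24 h replicate 3. From 48 to 144 h it was 0.53, 0.18 and 0.51 in the 3 runs that hold both, beside stromal medians of -1.66, -1.39 and -2.14 and blood-cell medians of 1.84, 1.11 and 1.07.

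Against 0 h, 14 members were called lower and 1 higher at 72 h (background 8.23% and 17.2%), with a median of -0.24, and 79 of 80 were not called at 144 h, where the median was -0.07 and the only call was the rise of Rpl39l (background 5.64%). At 72 h the 15 calls (background 25.4%) became 9 without 0 h replicate 2 and 7 without 72 h replicate 3, 29 (28 lower) with quantile normalization and 33 (32 lower) when rescaled without small RNA genes. At 144 h there was no call without 0 h replicate 1 or 2. Missing the threshold does not show that levels were equal. No code run holds both a 0 h library and 1 of 72, 120, 144 or 168 h. Changes against 0 h at these times could thus not be compared within a run, and a difference between runs may be part of them. At 144 h, 10 of 80 members lay below all 0 h libraries, a share near the background of 10.8% of genes. The single libraries of 120 and 168 h allow no test. In that of 120 h, 58 members were lower and 22 higher than the 0 h mean, with a median of -0.13, and 40 lay below all 0 h libraries, against 27.9% of genes. In that of 168 h, 32 were lower and 48 higher, with a median of 0.05, and 24 lay above all 0 h libraries, against 32.8% of genes.

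Several low members had single libraries far from the others. Rps27 was at 16.2, 1015 and 13.1 FPKM at 4 h, its value in replicate 2 being far above the range of 4.13 to 20.3 in the other libraries. Rpl26 was at 283, 38.9 and 90.0 FPKM at 0.5 h and at 0.0062 in the 168 h library. Rpl34 was at 10.5, 18.4 and 8.29 FPKM at 4 h and at 23.7, 56.7 and 18.5 FPKM at 144 h. None of these 3 genes was called at 24 h against 0 h. At 4 h, where 2 members were called higher (background 18%), Rps27 was 1 of them, at 2.18 ± 0.82 (adjusted p = 0.0366). The call was lost without 4 h replicate 2, at 0.17, and also without any 1 of the 0 h libraries.

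**Figure D5:**
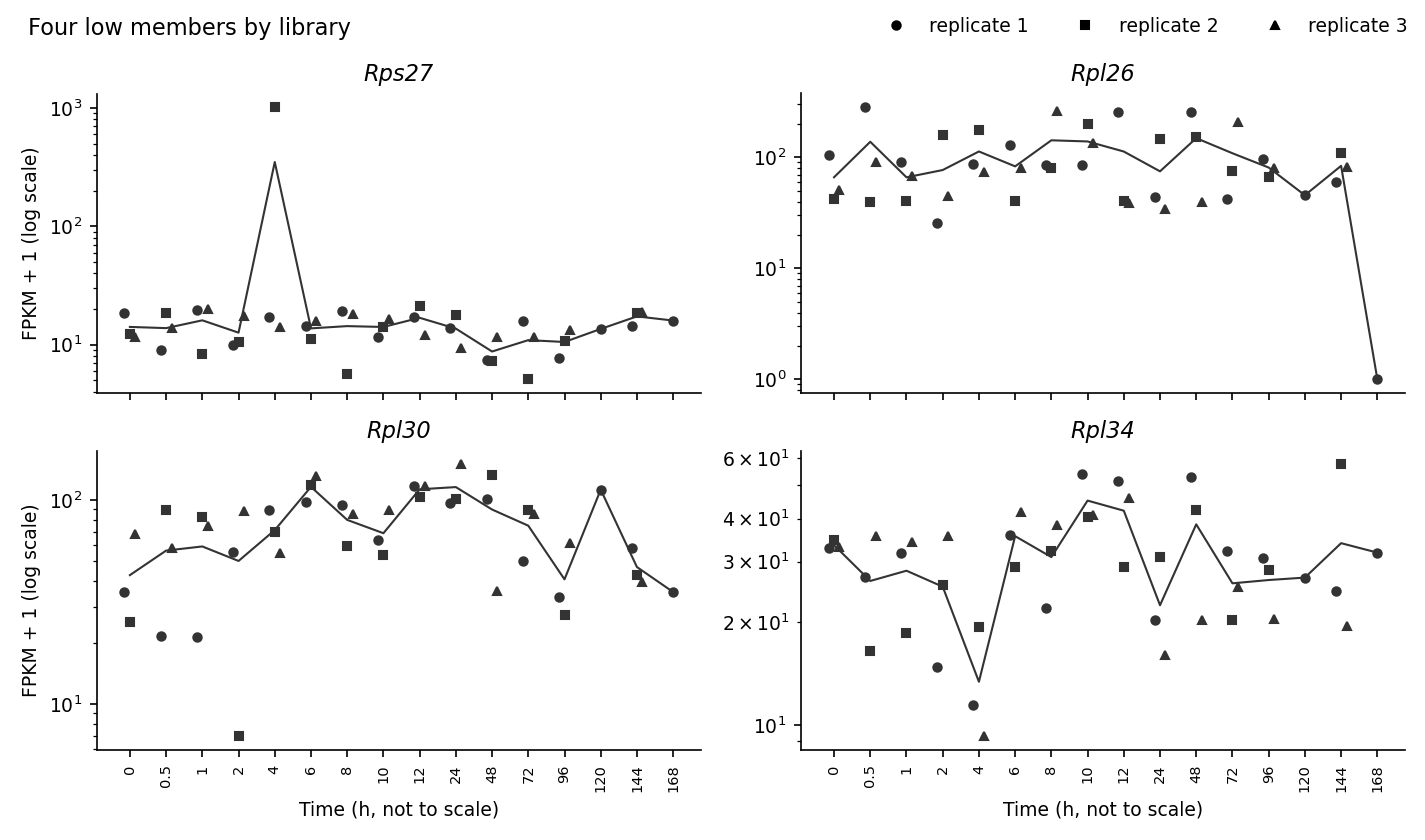
FPKM + 1 (log scale) of Rps27, Rpl26, Rpl30 and Rpl34 in each library by hours since the change of culture (not to scale); symbols are replicates and lines join the means. Single libraries stand off by far, as Rps27 in replicate 2 at 4 h (1015 FPKM) and Rpl26 at 168 h (0.0062 FPKM), and replicates spread widely.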

How the data were processed

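The authors deposited 1 table of FPKM values (fragments scaled to transcript length and library size) for 23234 genes in 44 libraries. TopHat2 2.1.0 and Cufflinks 2.1.1 are listed as tools and mm9 as the genome build, per the submitters' processing notes. No source used here explains the word corrected in the name of the deposited table. Depth is unknown, so no counting interval is given and no count model was used.

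The log2 of FPKM + 1 was used without rescaling. The 13907 genes that reached 1 FPKM in 3 or more of the 42 replicated libraries entered a linear model (limma 3.58.1, R 4.3.3) that had 1 mean per time point and eBayes with trend. All p-values are two-sided and adjusted by Benjamini-Hochberg over all genes tested within a comparison, with calls at an adjusted p under 0.05. Single libraries (120 and 168 h) were not fitted. With 3 libraries per group, the smallest exact permutation p is 0.1. A second fit subtracted the mean log2 of the tested members from each library. The fit was also run on simulated data with independent noise for each gene and no shift common to a library. Its outcome is not given here, and it cannot gauge the effect of such shifts on the counts.

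The members, gene lists and tests were chosen with earlier results of these data known. Named genes were up to 3 called members with the largest rise and fall per main comparison, the 3 highest and lowest means, the 5 largest F statistics relative to the family mean, a fixed set of members, and up to 3 genes per other list with the largest change at 24 h. Some genes that the rule gives are not printed. Genes named as mutated, low or near the threshold were chosen with their values seen. Alternatives were quantile normalization, rescaling without small RNA genes, a shift to the blood-cell markers, a pseudocount of 0.1, no filter, the stromal mean as a covariate, replicate number or code run as a block, and leaving out libraries. Promoters were read from the RefSeq table (GRCm38.p6). No protein sequence was used here.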

Additional observations from a re-analysis of the deposited data

How the results depend on the processing

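A shift of the libraries to the general blood-cell markers adds the same amount to all genes of a library, so it turned the sign of most members' changes but not their place against other genes, the members' median less that of all genes at 24 h being -0.626 either way. It moved the median of all genes against 0 h by 1.17, 1.61, 2.18, 1.10 and 0.48 at 1, 6, 24, 72 and 144 h, and by -1.71 between 24 and 144 h. On that scale, for which the shares of all genes called are not given, the members called were all higher than at 0 h: 50 (0.5 h), 77 (1 h), 75 (2 h), 76 (4 and 8 h), 79 (6, 10, 12, 24 and 48 h) and 68 (72 h), with 74 lower at 144 h than at 24 h and 79 by the F test. Gene by gene this gave 0.53 for Rpl36a, 0.57 for Rps4x and 0.59 for Rpl13a at 1 h, and 0.52 for Rpl13a and 0.83 for Rps4x at 6 h. At 24 h it gave 0.17 for Rps14, 0.69 for Rpl13a, 0.76 for Rps9, 0.95 for Rps3, 1.27 for Rps6, 0.91 for Rps19, 1.42 for Rpl3, 1.26 for Rpl5, 0.91 for Rpl10, 1.15 for Rpl11, 1.37 for Rpl22, 1.97 for Rpl38, 1.44 for Rplp0, 1.96 for Rplp1, 1.22 for Rplp2, 1.93 for Rpsa, 1.36 for Fau, 0.65 for Rpl22l1, 1.62 for Rpl36al and 0.87 for Eif3f. From 24 to 144 h it gave -0.076 for Rps14, -0.30 for Rps19 and -0.47 for Rps9. With the stromal mean as a covariate, the F test called 1 member, 3 departed from the family mean and 0 were called in each of the 6 main comparisons; Rpl36a, Rps4x and Rpl13a at 1 h read 0.28, 0.019 and 0.073, and Rpl36al at 24 h 0.039. Quantile normalization gave 29 calls at 72 h and 2 at 144 h, and rescaling without small RNA genes 31 at 1 h and 33 at 72 h. With the code run as a block the calls were 23 in place of 14 at 0.5 h and 23 in place of 43 at 48 h, and at 0.5 h quantile normalization gave 7 and no filter 9. The stromal mean changed with time, so the fit with it as a covariate cannot separate it from time. The cause was not tested.

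Leaving out 1 library or 1 replicate number gave 1 to 41 calls at 1 h, 18 to 51 at 6 h, 48 to 59 at 24 h, 6 to 20 at 72 h and 0 to 3 at 144 h against 0 h, and 33 to 59 between 24 and 144 h, 20 to 44 by the F test and 6 to 34 departures from the family mean. Dropping a replicate number leaves 2 libraries per time point. The same-numbered libraries correlated at -0.063 to 0.142 in their deviations, and differently numbered ones at -0.183 to 0.075. Most same-numbered values were thus low but positive. From 0 to 6 h each replicate number belongs to 1 code run, so pairing by number and by run cannot be told apart there. The main fit used neither. With the replicate block the counts were 54 by the F test, 44 departures, and 23, 48, 58, 16 and 1 at 1, 6, 24, 72 and 144 h against 0 h and 56 between 24 and 144 h. The unknown depth limits what can be said of members listed near 0.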
